A study of Mus musculus with 6 samples.

Results

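Cyp17a1 and the other enzymes that make, interconvert and inactivate steroid hormones were followed in livers of CYP2D6-humanized mice before pregnancy, on day 21 of pregnancy and on day 7 postpartum. All animals were transgenic for human CYP2D6 on a C57BL/6 background, including those sampled before pregnancy, so no liver without the transgene enters these comparisons. There were 2 livers per stage, called biological replicates in the labels, and 1 Affymetrix array per liver, 6 arrays in all; treatment, feeding, age and hour of collection are unstated in the labels. The gene set was a list of 8 enzymes: Cyp17a1, Hsd3b5, Hsd3b2, Hsd17b2, Srd5a1, Akr1c6, Hsd11b1 and Hsd17b6. Of these, 7 had a probe set that the platform annotation assigns to that symbol alone, out of 18193 genes measured in the same way, and Srd5a1 was not analysed here. Each gene is given by its brightest probe set, in log2 units of array intensity, where a difference of 1 is a doubling. Since brightness depends on the probes, levels are compared between stages of 1 gene and not between genes.

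Steroid hormones are made from cholesterol in gonads, adrenals and placenta by a chain of P450 enzymes and hydroxysteroid dehydrogenases, and the liver is the main organ that takes them up, reduces them, conjugates them and sends them to bile and urine. Cyp17a1 is the P450 that converts progesterone-type steroids into androgen precursors, and it needs electrons from P450 oxidoreductase. Hydroxysteroid dehydrogenases switch a hydroxyl group to a ketone or back, which turns hormones on or off: Hsd17b2 oxidises estradiol and testosterone to weaker forms, and Hsd11b1 regenerates active corticosterone. In mice, several of these liver enzymes are sex-biased through the pattern of growth hormone secretion, and Hsd3b5 is a textbook male-biased gene.

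In pregnancy, 2 of the 7 enzymes rose and 2 fell relative to pre-pregnancy liver. Cyp17a1 rose 34.4-fold and Hsd17b6 2.06-fold, whereas Hsd3b5 fell 6.32-fold and Hsd3b2 6.06-fold. The remaining 3, Hsd17b2, Akr1c6 and Hsd11b1, did not pass the test at any comparison of stages. In whole liver, fewer cells of a type and less RNA per cell cannot be told apart. Postpartum, Cyp17a1 stood at 11.46 ± 0.636 and Hsd3b2 at 8.04 ± 0.495 (SD, n = 2), on the side of their pre-pregnancy levels that they held in pregnancy, while Hsd17b6 was at 11.46 ± 0.233, 0.10 from its pre-pregnancy mean. Calls are from limma, fitted over all genes and arrays, at an adjusted p (Benjamini-Hochberg over 18193 genes) under 0.05. By that rule 13.7% of all genes were called in pregnancy against pre-pregnancy, 5.46% higher and 8.25% lower. The enzymes were listed with earlier results of these arrays known, so 4 of 7 is a description of the list. Their median difference was -0.06, beside 0.04 over all genes, and their median absolute difference was 1.04, beside 0.19. With 2 livers a stage, the p-values set a difference against a spread estimated from these livers and moderated over all genes.

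**Figure D1:**
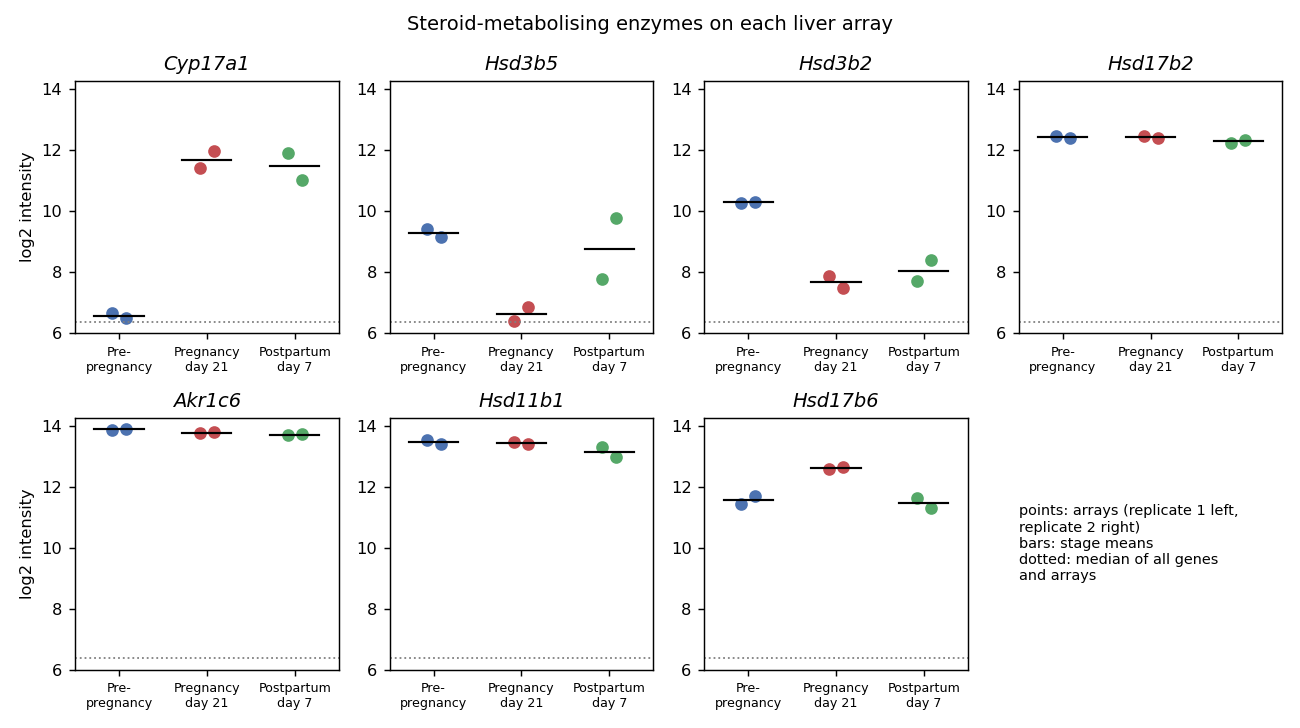
Log2 intensity (vertical axis) of the 7 enzymes on each array at pre-pregnancy, pregnancy day 21 and postpartum day 7; points are arrays, bars are stage means of 2 arrays, and the dotted line is the median of all genes and arrays (6.37). Cyp17a1 lies near that line before pregnancy and above 11 at both later stages, and the postpartum arrays of Hsd3b5 lie far apart.

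Cyp17a1 had levels of 6.64 and 6.49 before pregnancy, then 11.39 and 11.95 on day 21 of pregnancy and 11.91 and 11.01 on day 7 postpartum. Both pre-pregnancy arrays lay close to the median of all genes, and the other 4 arrays were all higher by more than 4 log2 units, with the pregnant and postpartum arrays overlapping each other. The rise in pregnancy against pre-pregnancy was 5.11 ± 0.287 on the log2 scale (SE, limma adjusted p = 0.000227), the largest rise of all 18193 genes. Postpartum, Cyp17a1 remained 29.8-fold above pre-pregnancy (log2 difference 4.895 ± 0.287, adjusted p = 0.000862), again first of all genes. Postpartum against pregnancy the difference was -0.21 (adjusted p = 0.727), with a 95% interval from -0.88 to 0.46. In order of stage means, pregnancy and postpartum thus did not differ beyond their spread, and pre-pregnancy lay below both. Over the 6 arrays left out in turn, the rise in pregnancy ran from 4.83 to 5.385 and the postpartum excess over pre-pregnancy from 4.45 to 5.345, and both passed the test each time. Against pregnancy, the postpartum difference changed sign, to 0.07 without pregnancy replicate 2 and 0.24 without postpartum replicate 2. Cyp17a1 has 1 probe set on the array, so no second probe set stands beside these values.

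Hsd17b6, an oxidoreductase of the retinol dehydrogenase type that acts on androgen metabolites, had levels of 11.44 and 11.68 before pregnancy, then 12.56 and 12.64 in pregnancy and 11.62 and 11.29 postpartum. The pregnant arrays were the highest 2, and the pre-pregnancy and postpartum arrays overlapped. Hsd17b6 rose by 1.04 ± 0.142 in pregnancy against pre-pregnancy (adjusted p = 0.00513) and fell by 1.145 ± 0.142 postpartum against pregnancy (adjusted p = 0.00933). Postpartum against pre-pregnancy the difference was -0.10 (adjusted p = 0.747), with a 95% interval from -0.43 to 0.22. Of the 2 comparisons that passed, the first did not hold without pre-pregnancy replicate 1 (0.92, adjusted p = 0.0646) and the second without postpartum replicate 2 (-0.98, adjusted p = 0.0501). A further probe set of Hsd17b6 was dim, at 4.26 to 4.50 on all arrays, below the array medians of 5.09 to 5.15, with a difference of -0.02 in pregnancy against pre-pregnancy. As the mean of both probe sets, Hsd17b6 rose by 0.51 in pregnancy (adjusted p = 0.0165) and differed by -0.4875 postpartum against pregnancy (adjusted p = 0.0455).

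Hsd3b2 and Hsd3b5 belong to the Hsd3b gene cluster. Hsd3b2 is a dehydrogenase and isomerase, and Hsd3b5 is a liver form that works mainly as a ketosteroid reductase and so inactivates steroids. Their promoter windows are shown because these genes of 1 family were the 2 that fell in pregnancy. The sequences are RefSeq windows on GRCm38.p6, both on the minus strand, from 250 bases before to 50 after the start site; the 5 of 7 measured enzymes with such a window were Hsd3b5, Hsd3b2, Akr1c6, Hsd11b1 and Hsd17b6. Capitals mark the longest run of bases that both windows share, 19 bases, which lies after the start site. It starts at the transcript's base 23 in Hsd3b5 and base 32 in Hsd3b2. In Hsd3b2 it ends at base 50, the last base of the window, so a longer run would not be seen.
Hsd3b5, chr3:98645485-98645784: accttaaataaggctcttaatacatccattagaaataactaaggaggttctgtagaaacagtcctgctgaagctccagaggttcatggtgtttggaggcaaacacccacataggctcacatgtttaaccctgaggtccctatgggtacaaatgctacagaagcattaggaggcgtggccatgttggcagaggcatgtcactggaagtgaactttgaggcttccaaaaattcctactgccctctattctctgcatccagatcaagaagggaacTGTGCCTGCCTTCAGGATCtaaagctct
Hsd3b2, chr3:98724494-98724793: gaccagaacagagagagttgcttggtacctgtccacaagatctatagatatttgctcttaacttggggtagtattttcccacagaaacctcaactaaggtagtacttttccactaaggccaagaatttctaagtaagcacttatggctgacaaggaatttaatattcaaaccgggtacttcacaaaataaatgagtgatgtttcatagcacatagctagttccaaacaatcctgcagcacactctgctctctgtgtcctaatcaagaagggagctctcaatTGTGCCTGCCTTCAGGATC
The longest run that the Hsd3b5 window shared with that of Hsd3b3, another gene of the cluster, was 24 bases. With those of Akr1c6, Hsd17b6 and Hsd11b1 it was 8, 8 and 9 bases. Aligned over the whole windows, Hsd3b5 was identical to Hsd3b2 at 55.4% of positions and to Hsd3b3 at 55.5%. With Akr1c6, Hsd17b6 and Hsd11b1 the identity was 50.3%, 51.0% and 53.6%. The STAT consensus TTCNNNGAA, read on both strands, was in 0 of these 5 enzymes' windows and in 8.30% of all 32851 windows of this length, and the nuclear receptor half-site AGGTCA was in 0 of them and in 16.3% of all windows.

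Hsd3b2 had levels of 10.25 and 10.30 before pregnancy, then 7.88 and 7.47 in pregnancy and 7.69 and 8.39 postpartum. Both pre-pregnancy arrays were above all 4 others, and the pregnant and postpartum arrays overlapped. Hsd3b2 fell by 2.60 ± 0.227 in pregnancy against pre-pregnancy (adjusted p = 0.00128), and postpartum it was still lower than before pregnancy, by a log2 difference of -2.235 ± 0.227 (4.71-fold, adjusted p = 0.00363). Postpartum against pregnancy the difference was 0.365 (adjusted p = 0.410), with a 95% interval from -0.16 to 0.89. The fall in pregnancy passed in all 6 arrays left out in turn, and the postpartum call against pre-pregnancy did not hold without the first pre-pregnancy array (-2.26, adjusted p = 0.0587). A probe set that the annotation assigns to Hsd3b6, Hsd3b3 and Hsd3b2 together was at 9.93 and 9.97 before pregnancy, then 8.40 and 8.61 in pregnancy and 8.24 and 8.71 postpartum. Since these paralogs can share probes, how much of the Hsd3b2 signal, or of that given for Hsd3b3 below, comes from neighbouring genes was not tested.

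Hsd3b5 had levels of 9.40 and 9.15 before pregnancy, then 6.39 and 6.84 in pregnancy and 7.76 and 9.77 postpartum. The pregnant arrays were the lowest 2, next to the median of all genes, and the postpartum arrays lay 2.01 apart, 1 below and 1 above both pre-pregnancy arrays. Hsd3b5 fell by 2.66 ± 0.534 in pregnancy against pre-pregnancy (adjusted p = 0.0187). That call was kept without either postpartum array and lost without any of the other 4, with adjusted p from 0.0572 (without pregnancy replicate 2) to 0.146 (without pre-pregnancy replicate 1), and also with a trended and robust variance (adjusted p = 0.124), while the difference itself stayed between -2.89 and -2.44. Postpartum against pregnancy it was 2.15 ± 0.534 (adjusted p = 0.0757), with both postpartum arrays above both pregnant ones. Postpartum against pre-pregnancy it was -0.51 ± 0.534 (adjusted p = 0.656), and 0.495 without postpartum replicate 1 but -1.515 without postpartum replicate 2. Whether the postpartum values of Hsd3b5 and Hsd3b2 differ from each other relative to their pre-pregnancy levels was not tested.

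Hsd17b2, Akr1c6 and Hsd11b1 were called in no comparison. Hsd17b2, which inactivates estradiol and testosterone, had levels of 12.45 and 12.40 before pregnancy, then 12.46 and 12.38 in pregnancy and 12.23 and 12.33 postpartum. Its pregnancy difference was -0.01 with a 95% interval from -0.24 to 0.23. Both postpartum arrays were the lowest 2, and the differences from pregnancy and pre-pregnancy were -0.14 (adjusted p = 0.481) and -0.145 (adjusted p = 0.467). Akr1c6, an aldo-keto reductase that reduces ketosteroids to their hydroxyl forms, had levels of 13.86 and 13.88 before pregnancy, then 13.74 and 13.79 in pregnancy and 13.68 and 13.72 postpartum. Its stages did not overlap, but the largest difference, postpartum against pre-pregnancy, was -0.17 ± 0.0971 (adjusted p = 0.358, 95% interval -0.395 to 0.06). Hsd11b1 had levels of 13.54 and 13.41 before pregnancy, then 13.46 and 13.38 in pregnancy and 13.29 and 12.97 postpartum. Its pregnancy difference was -0.06 (95% interval -0.36 to 0.25), and postpartum it was -0.345 ± 0.131 against pre-pregnancy, which did not pass (adjusted p = 0.163), although its own 95% interval, -0.65 to -0.04, left out 0. Of the 7 enzymes, 5 had arrays that did not overlap in each comparison. In 59.6% of all genes the arrays did not overlap in pregnancy against pre-pregnancy, in 50.1% postpartum against pregnancy, and in 52.6% postpartum against pre-pregnancy.

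**Figure D2:**
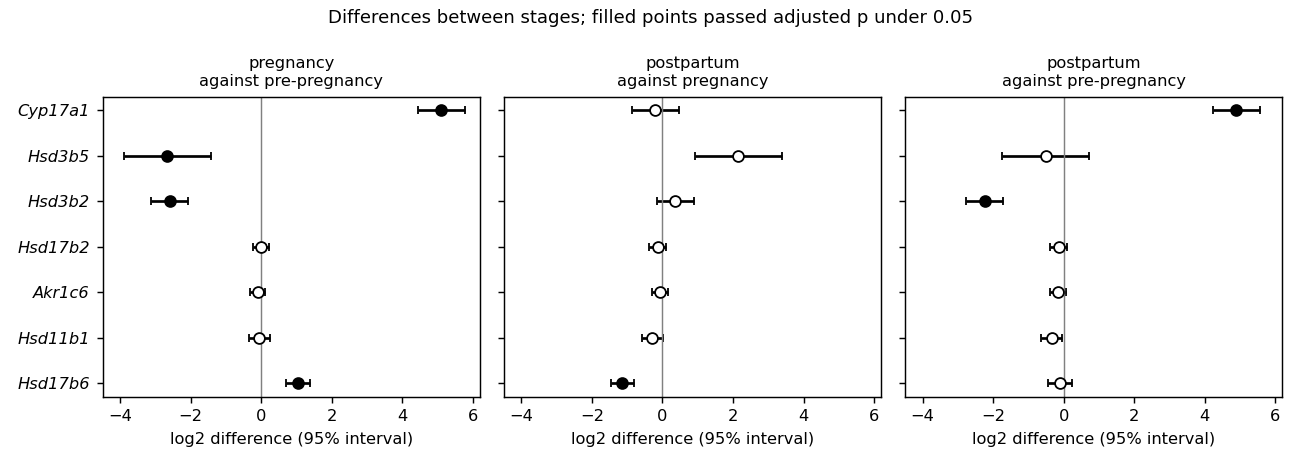
Log2 difference (horizontal axis) of the 7 enzymes in each comparison with moderated 95% intervals from limma; filled points passed an adjusted p of 0.05. Cyp17a1 and Hsd3b2 are filled in both comparisons with pre-pregnancy, Hsd17b6 in both comparisons with pregnancy, and Hsd3b5 in pregnancy against pre-pregnancy alone.

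Across the 3 comparisons, 1 of the 7 enzymes was called postpartum against pregnancy (Hsd17b6, lower), where 3.29% of all genes were (2.41% higher and 0.879% lower), and 2 of 7 postpartum against pre-pregnancy (Cyp17a1, higher; Hsd3b2, lower), where 7.66% were (3.91% higher and 3.75% lower). The 3 comparisons share arrays, so their values stand side by side and are not independent. By the range over the 6 arrays, Cyp17a1 (5.46), Hsd3b5 (3.38) and Hsd3b2 (2.83) were 3rd, 29th and 55th of all genes, and Hsd17b6 (1.35) was 688th. Akr1c6 (0.20), Hsd17b2 (0.23) and Hsd11b1 (0.57) had ranges at percentiles 8.75, 13.1 and 69.0.

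Of 10 measured genes for synthesis and its electron or cofactor supply, 1 rose and 2 fell in pregnancy against pre-pregnancy. Over all genes, 5.46% were called higher and 8.25% lower. H6pd, which supplies the NADPH used by Hsd11b1, had levels of 10.71 and 10.70 before pregnancy, then 11.59 and 11.62 in pregnancy and 11.14 and 11.26 postpartum, with postpartum arrays between the others. H6pd rose 1.87-fold in pregnancy (log2 difference 0.90 ± 0.1007, adjusted p = 0.00273, kept over all 6 arrays left out). Fdx1, the ferredoxin that feeds mitochondrial P450s, fell 1.68-fold (adjusted p = 0.00989), and Hsd3b3 fell 1.64-fold (adjusted p = 0.0132); both calls were lost without pre-pregnancy replicate 1. The same 3 genes were called postpartum against pre-pregnancy, where 3.91% of all genes were higher and 3.75% lower. H6pd was 1.41-fold higher, Fdx1 1.49-fold lower and Hsd3b3 1.99-fold lower. H6pd and Fdx1 each kept that call in 2 of 6 arrays left out and Hsd3b3 in 4. Hsd3b1 had levels of 7.76 and 9.09 in pregnancy, against 9.56 and 9.46 before pregnancy, and was not called (adjusted p = 0.0901). Cyb5a, the cytochrome that promotes the lyase step of Cyp17a1, differed by -0.21 (adjusted p = 0.198).

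Cyp17a1 was set beside markers of ovary, testis and adrenal, the organs best known for its pathway. Of 12 measured gonadal and adrenal markers, 0 were called in any comparison by limma (0 also with a trended and robust variance, and 3, 0 and 0 at an unadjusted p under 0.05), and 9 never reached the median of all genes. Without pregnancy replicate 2, 1 was called lower in pregnancy and 1 higher postpartum against pregnancy. Star and Cyp11a1, which start steroid synthesis, stayed at 5.39 to 5.81 and at 3.92 to 4.28 over all arrays. The summed level of the list ran from 9.78 to 10.37 in pregnancy, against 10.47 to 10.49 before pregnancy. A summed level is the log2 of the summed unlogged intensities, so bright genes weigh most. Here these include Hsd3b1, whose lower levels in pregnancy are given above. Of 7 placental markers, 0 were called by limma in each comparison (0 with the other variance, and 1, 1 and 0 at an unadjusted p under 0.05), 6 never reached that median, 2 were called higher in pregnancy without pregnancy replicate 1, and the summed level was 7.75 to 8.09 in pregnancy against 7.70 on both arrays before pregnancy. Hepatocyte markers were bright on every array: the summed level of 10 was 17.41 to 17.43 in pregnancy and 17.36 to 17.37 before, and 1, Apob, rose (1.495-fold, lost without pre-pregnancy replicate 1). Of 12 endothelial, 12 Kupffer cell and 10 stellate cell markers, 3, 2 and 1 fell in pregnancy (0, 1 and 0 without pre-pregnancy replicate 1, and 0, 1 and 1 without pregnancy replicate 2), where 8.25% of all genes were lower. Without pre-pregnancy replicate 2 the falls were 1, 1 and 0, and without pregnancy replicate 1 they were 2, 3 and 1. Each of these lists also had a rise called in some fit with an array left out. By limma at an unadjusted p under 0.05, 9, 4 and 2 of these markers differed in pregnancy against pre-pregnancy. The median differences were -0.36, -0.245 and -0.15. Postpartum against pre-pregnancy the counts were 6, 2 and 4. The summed levels of the 3 lists were 12.56 to 12.61, 13.03 to 13.34 and 12.91 to 12.94 in pregnancy, against 12.73 to 13.04, 13.40 to 13.47 and 13.06 to 13.14 before. Of 10 pancreatic acinar markers, Cela3b rose and Cela1 fell in pregnancy, and of 6 bile duct markers 0 were called in pregnancy (0 with the other variance and 0 at an unadjusted p under 0.05); postpartum, 0 were called by limma (0 with the other variance, 2 and 2 at an unadjusted p under 0.05), and 1 was called higher in each comparison without postpartum replicate 2. Cela3b rose 8.20-fold in pregnancy and fell 7.04-fold postpartum against pregnancy, and Cela1 fell 2.27-fold in pregnancy. Of the 10 acinar markers, 5 had an unadjusted p under 0.05 by limma in pregnancy against pre-pregnancy. Their summed level was 10.48 to 10.70 in pregnancy, against 10.67 to 10.75 before. Cela1, at 10.37 and 10.46 before pregnancy, makes up most of the sum there, so its fall weighs on it. The median difference of the list was 0.155, and further acinar markers were called higher without pregnancy replicate 2. The part of all these marker lists in the enzymes' values was not tested.

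Among 12 other hydroxysteroid dehydrogenases, 1 fell and 0 rose in pregnancy, and 0 were called postpartum against pregnancy or against pre-pregnancy by limma (1 and 0 with a trended and robust variance, 2 and 1 at an unadjusted p under 0.05, and 1 and 0 without pregnancy replicate 2). The gene that fell was Hsd17b7, which also serves cholesterol synthesis, with levels of 9.26 and 9.76 in pregnancy, against 10.60 and 10.68 before pregnancy (2.19-fold, adjusted p = 0.00995, call kept over 4 of 6 arrays left out). Hsd17b4, Hsd17b10, Hsd17b11 and Hsd17b12 were not called, with differences from -0.42 to 0.28. Of 10 steroid and keto reductases, 4 fell and 0 rose in pregnancy, and 3 rose and 0 fell postpartum against pregnancy. Among all genes, 8.25% fell and 5.46% rose in pregnancy, and 2.41% rose and 0.879% fell postpartum against pregnancy. Akr1c19 had levels of 8.86 and 8.71 before pregnancy, then 6.34 and 6.78 in pregnancy and 9.34 and 9.28 postpartum. Its pregnant arrays were the lowest 2 and its postpartum arrays the highest 2; it fell 4.675-fold in pregnancy and rose 6.73-fold postpartum (adjusted p = 0.000374 and 0.000587). Akr1c13 fell 1.58-fold and rose 1.66-fold in the same comparisons, Akr1c12 fell 1.58-fold and Akr1d1, the ketosteroid reductase of bile acid synthesis, fell in pregnancy by 0.63 on the log2 scale. Without pre-pregnancy replicate 1, of these falls only that of Akr1c19 was still called. The Akr1c12 fall was also lost without pregnancy replicate 1, and the postpartum rise of Akr1c13 without either postpartum array. Cbr1, a carbonyl reductase, rose 2.12-fold postpartum against pregnancy (adjusted p = 0.00471). Besides Akr1c6, the relatives Akr1c14, Akr1c18, Akr1c20 and Akr1c21 were called in 0 of 3 comparisons, which with 2 arrays a stage does not show that they stayed the same.

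**Figure D3:**
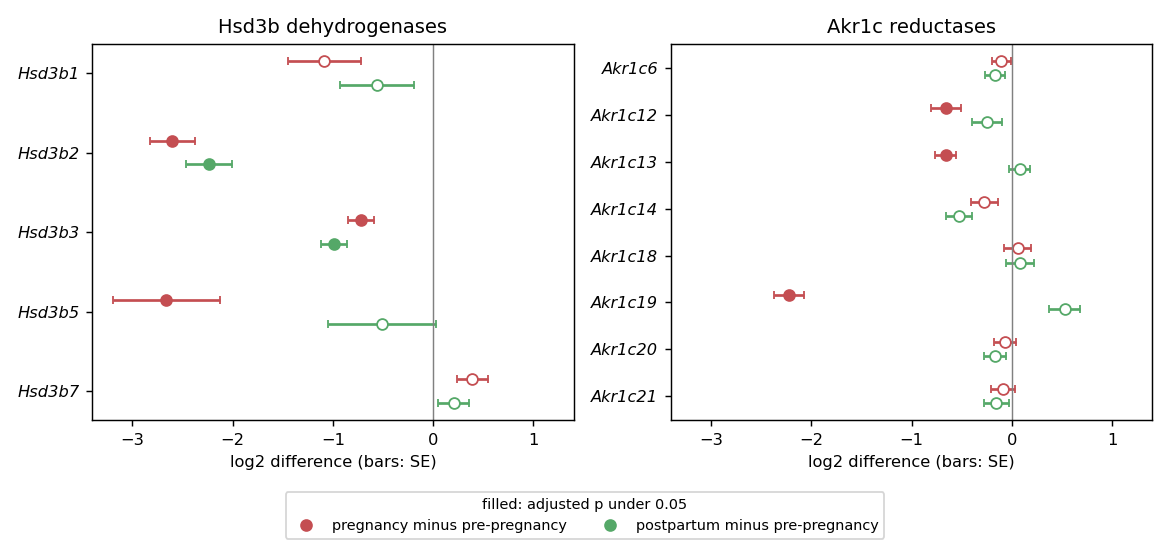
Log2 difference from pre-pregnancy (horizontal axis) in pregnancy (red) and postpartum (green) for measured Hsd3b genes and Akr1c genes, with limma standard errors; filled points passed an adjusted p of 0.05. Hsd3b2 and Hsd3b3 are filled at both stages and Hsd3b5 in pregnancy; Akr1c12, Akr1c13 and Akr1c19 are filled in pregnancy and Akr1c6 at neither.

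Of 9 genes for steroid sulfation and side-chain or ring hydroxylation, 1 rose and 1 fell in pregnancy, where 5.46% of all genes rose and 8.25% fell. Cyp39a1, an oxysterol hydroxylase, had levels of 8.20 and 8.21 before pregnancy, then 9.14 and 9.24 in pregnancy and 10.01 and 9.62 postpartum, each stage above the last, and rose 1.98-fold in pregnancy (adjusted p = 0.00597, lost without pre-pregnancy replicate 1) and 3.05-fold postpartum against pre-pregnancy (adjusted p = 0.00196, kept over all 6 arrays left out). Papss2, which makes the sulfate donor, fell 1.42-fold (adjusted p = 0.0477), a call kept in 1 of 6 arrays left out. Of 10 receptors and carriers, 1 rose and 2 fell in pregnancy, beside the same 5.46% and 8.25% of all genes. Serpina6, the plasma carrier of corticosterone and progesterone, had levels of 12.49 and 12.37 before pregnancy, then 14.44 and 14.53 in pregnancy and 13.47 and 12.77 postpartum. It rose 4.16-fold in pregnancy (adjusted p = 0.00193) and fell 2.58-fold postpartum against pregnancy (adjusted p = 0.0173); the rise was kept over all 6 arrays left out and the later fall over 3, and the later fall was also lost with a trended and robust variance. The estrogen receptor Esr1 fell 2.57-fold in pregnancy (adjusted p = 0.00749), at 10.39 and 11.09 against 12.18 and 12.02 before pregnancy, and the glucocorticoid receptor Nr3c1 fell 1.65-fold (adjusted p = 0.0198). Both were also called lower postpartum against pre-pregnancy (2.26-fold and 1.74-fold). Those postpartum calls were lost without pre-pregnancy replicate 1, pre-pregnancy replicate 2 or postpartum replicate 2, and for Esr1 also without postpartum replicate 1. Both pregnancy calls were lost without pre-pregnancy replicate 1, and that of Nr3c1 also without pregnancy replicate 2.

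Of 17 regulators of steroid enzyme genes, 4 fell and 0 rose in pregnancy: Srebf1 (1.88-fold), Foxa2 (1.705-fold), Cebpb (1.52-fold) and the bile acid receptor gene Nr1h4 (1.37-fold). Over all genes, 8.25% were called lower and 5.46% higher. These calls were lost without pre-pregnancy replicate 1, as were most calls over all genes. Srebf1 also lost its call without pre-pregnancy replicate 2, and Cebpb without pregnancy replicate 2. Nr1h4 lost its call without any of the pre-pregnancy or pregnancy arrays. Cebpb and Nr1h4 were also called lower postpartum against pre-pregnancy (1.945-fold and 1.38-fold), in 5 and 2 of 6 arrays left out, and neither without pre-pregnancy replicate 1. Nr5a1, the activator of Cyp17a1 in gonads and adrenals, was dim at 5.29 to 5.84, and its liver relative Nr5a2 was at 9.93 and 9.89 in pregnancy, against 9.74 and 9.70 before pregnancy (0.19, adjusted p = 0.228). Stat5b (-0.05, adjusted p = 0.860) and Bcl6 (0.16, adjusted p = 0.730), which carry and oppose growth hormone signals on sex-biased genes, were not called in pregnancy.

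Hsd3b5 is male-biased and Cyp17a1 was placed with female-biased liver genes, so both lists were counted. Of 13 male-biased genes measured, 5 fell and 1 rose in pregnancy, with a median of -0.53 beside 0.04 over all genes. In that comparison 8.25% of all genes were called lower and 5.46% higher. Without pre-pregnancy replicate 1 fewer of the 13 were called, and fewer of all genes were too. Postpartum against pre-pregnancy, 6 fell and 1 rose, where 3.75% of all genes were lower and 3.91% higher. When any 1 pre-pregnancy or postpartum array was left out, fewer of the 13 were called, and fewer of all genes were too. Cyp2d9, a male-biased steroid hydroxylase, had levels of 8.78 and 8.68 before pregnancy, then 6.80 and 6.34 in pregnancy and 6.16 and 6.44 postpartum, with both later stages below the first, and fell 4.47-fold in pregnancy (adjusted p = 0.000735). Nudt7 fell 3.76-fold and Gstp1 rose 1.84-fold. Ugt2b38 was lower in pregnancy, at a dim 5.35 and 4.4 against 6.71 and 7.30 before pregnancy, and its call (adjusted p = 0.00989) was lost without either pre-pregnancy array. Of 13 female-biased genes measured, Cyp17a1 among them, 3 rose and 4 fell in pregnancy, with a median of -0.17. Among all genes 5.46% rose and 8.25% fell there. Without pre-pregnancy replicate 1, or without replicate 2, fewer of the falls were called. Postpartum against pre-pregnancy, 4 rose and 3 fell, where 3.91% of all genes were higher and 3.75% lower. Again fewer of these 13 were called when any 1 pre-pregnancy or postpartum array was left out. Cyp3a16 rose 4.69-fold and Cyp3a44 by 0.98 on the log2 scale, whereas Cyp2b13 fell 3.32-fold (a call lost without pre-pregnancy replicate 1, pre-pregnancy replicate 2 or pregnancy replicate 2) and Slc22a26 2.71-fold.

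The genes nearest to each enzyme over the 6 arrays were taken by the root mean square difference between profiles, each gene centred on its own mean. Profiles were not scaled, so the distance also grows with the size of a change, and genes that change little have short distances. For Cyp17a1, which had the largest rise, Plppr1 was closest at 1.34 log2 units. Next came Tent5a (1.403), the P450 Cyp3a16 (1.48), the fatty acid translocase Cd36 (1.53) and Aldh18a1 (1.56). All of these except Aldh18a1 rose in pregnancy against pre-pregnancy, by 2.17 to 2.505, and Plppr1 started from a dim 3.79 and 3.81. For Hsd3b2 the nearest were Cyp2d9 (0.295), Ugt2b38 (0.299) and 2810408I11Rik (0.300). For Hsd3b5 they were Gm16551 (0.515), the acetoacetate-activating enzyme Aacs (0.604) and the endothelial lipase Lipg (0.621), and for Hsd17b6 Tmem191c (0.0941), the metallothionein Mt1 (0.1096) and the Wnt inhibitor Sfrp1 (0.132). Mt1 had levels of 12.85 and 12.83 before pregnancy, then 13.87 and 14.05 in pregnancy and 12.76 and 12.54 postpartum. For the 3 enzymes called in no comparison the closest genes were Pdf for Hsd17b2 (0.0236), Ddx18 for Akr1c6 (0.0243) and Asb7 for Hsd11b1 (0.0219). Each distance rests on 6 arrays in 3 stages, and a short one describes a similar profile over these arrays alone.

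**Figure D4:**
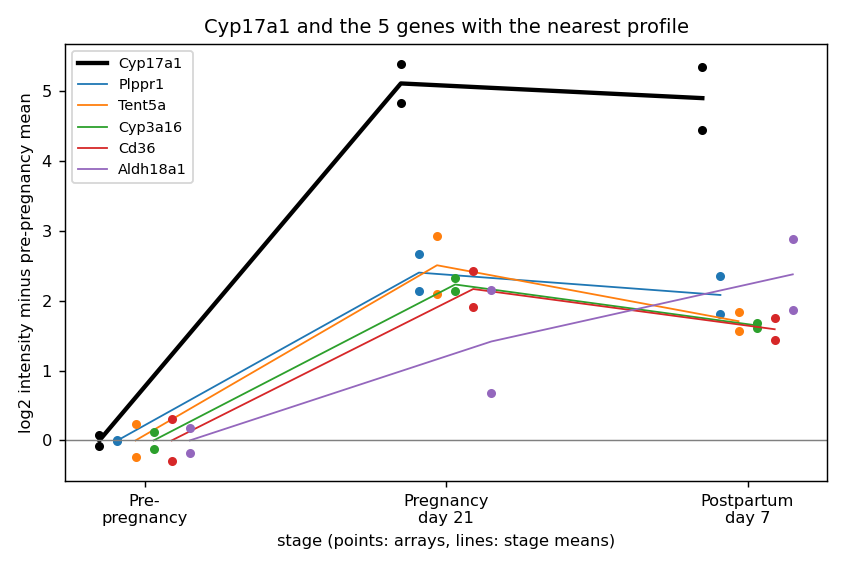
Log2 intensity minus the gene's pre-pregnancy mean (vertical axis) for Cyp17a1 (black) and the 5 genes with the nearest profile; points are arrays and lines join stage means. Cyp17a1 lies 4.445 to 5.385 above its pre-pregnancy mean on the 4 later arrays, and all 5 other genes lie lower there.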

How the data were processed

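The deposited table holds log2 values made by the authors with RMA and Affymetrix Power Tools, per the submitters' processing notes; no version is named there, and the log2 scale is inferred from the range of values, 2.69 to 15.05. Trizol-extracted RNA, 250 ng of it, was biotin-labelled for 3' IVT arrays, per the labels' protocols. Of 45101 probe sets, 34945 had 1 gene symbol in the platform annotation, 932 several, 9160 none here, and 64 were controls; 34741 gene IDs were found in the gene table and 0 symbols changed. Each of 18193 genes was represented by its brightest probe set on average. The test was limma 3.58.1 under R 4.3.3 (lmFit, 1 coefficient per stage, then eBayes, all 6 arrays, 3 residual and 4.80 prior degrees of freedom), two-sided, with Benjamini-Hochberg adjustment over all genes and a threshold of 0.05; SE and 95% intervals are moderated. The members and lists were chosen with earlier results of these data known. All 8 listed enzymes were to be named; from other lists, genes were named by the size of called, non-overlapping changes whose higher stage reached the median of all genes, up to 4 per list, and a few uncalled or further genes were named after their values were seen. Nearest genes were taken among those whose highest array reached that median. Array medians were 5.09 to 5.15, and replicate arrays correlated across genes at 0.994 to 0.997. The number of arrays limits the precision. Alternatives were a replicate block, a dim-gene filter, renormalization, median centring, another variance model, other uses of probe sets, other thresholds, fits on 4 arrays and leaving out each array. The tests were checked on simulated data. Promoter windows were read and searched with Python 3.11.15; figures were drawn with matplotlib 3.10.9.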

Additional observations from a re-analysis of the deposited data

How the results depend on the processing

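Among the differences of the 7 enzymes recomputed under 16 other settings, 315 kept their direction and their side of the threshold, 8 lost and 3 gained a call, and 10 changed sign, all of these for differences that had not passed the test. Leaving out each array in turn gave 2 to 4 enzymes called in pregnancy against pre-pregnancy (lowest without pre-pregnancy replicate 1), 0 to 2 postpartum against pregnancy (0 without postpartum replicate 2, 2 without postpartum replicate 1) and 1 to 3 postpartum against pre-pregnancy (1 without pre-pregnancy replicate 1, 3 without postpartum replicate 2). At a threshold of 0.1, 2 were called postpartum against pregnancy, Hsd3b5 being added. Without pre-pregnancy replicate 1, 323 of all genes were called in pregnancy against pre-pregnancy and 73 postpartum against pre-pregnancy, against 2494 and 1393 with all arrays. For Cyp17a1 postpartum against pregnancy the left-out values ran from -0.66 to 0.24, with 0.07 without pregnancy replicate 2. Signs also turned for Hsd17b2 in pregnancy against pre-pregnancy (0.0587 after quantile normalization; left-out values -0.045 to 0.035, being 0.02 without pre-pregnancy replicate 1 and the highest without pregnancy replicate 2), Hsd11b1 in the same comparison (left-out values -0.12 to 0.01, highest without pre-pregnancy replicate 1), and postpartum against pre-pregnancy for Hsd17b6 (0.0225 as the mean of its probe sets; left-out values -0.27 to 0.06, with 0.015 without pre-pregnancy replicate 2, 0.06 without postpartum replicate 2) and Hsd3b5 (-1.515 to 0.495, highest without postpartum replicate 1). The cause was not tested.

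With the replicate number as a block, 4, 1 and 2 enzymes were called in the 3 comparisons, as without it, and 2612, 574 and 1567 of all genes. The Cyp17a1 differences stayed at 5.105, -0.21 and 4.895. Same-numbered arrays did not deviate together across genes (correlations of 0.03, 0.11 and -0.03). Each correlation rests on a single difference per stage, so whether same-numbered samples share more than a number was not tested.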
